A study of Homo sapiens with 2 samples.

Results

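CLIC5, BIRC7, ANGPTL2 and WBP1L are 4 genes proposed as targets of the transcription factor ETV6 in leukaemia. Peaks of the HA-tagged ETV6 pulldown were taken as theirs when the summit lay in the gene's hg19 span widened by 20 kb on each side. By this rule 86 of the 315787 peaks of the list belonged to the 4 windows, with 24 at CLIC5, 7 at BIRC7, 34 at ANGPTL2 and 21 at WBP1L. The peaks came from chromatin immunoprecipitation sequencing with anti-HA beads in the established cell line Reh, a t(12;21)-positive pre-B acute lymphoblastic leukaemia. Cells received 200 ng of concentrated lentivirus (pCCL ETV6-HA) with polybrene at 8 µg/mL and were cultured for 2 weeks. The control cells received untagged ETV6 (pCCL ETV6) in the same way and went through the same pulldown. Each group is represented by 1 pooled library, and only the tagged pool has a peak list here. The tagged ETV6 was supplied from a vector. No spread between replicates could be measured, and no test between tagged and untagged cells was made. Which of the peaks reflect tagged ETV6 and which reflect background of the pulldown was therefore not tested.

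ETV6 belongs to the ETS family, whose DNA-binding domain recognises a GGAA core, and it acts mainly as a repressor that recruits corepressor complexes. In childhood B-lineage leukaemia it is fused to RUNX1 by t(12;21), and loss of the remaining ETV6 allele is common in that disease. CLIC5 encodes a chloride intracellular channel protein that associates with the actin cytoskeleton through ezrin. BIRC7, also called livin, encodes an inhibitor of apoptosis protein. ANGPTL2 encodes a secreted angiopoietin-like glycoprotein. WBP1L, also called OPAL1, encodes a membrane adaptor that was described as a marker of outcome in childhood acute lymphoblastic leukaemia. Whether transcripts of the 4 genes change with ETV6 was not measured in these data.

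The sequences before the gene starts are shown because the question at a proposed target is often whether the factor sits there. All 4 genes have an entry in the RefSeq promoter table, which is in build GRCh38.p14. The 250 bases directly before a listed start are given 5′ to 3′ on the gene's strand, with each GGAA or its reverse complement TTCC in capitals. For CLIC5 the third of 3 listed starts is shown, chosen after the place of the tallest CLIC5 peak was seen, because the spacing of the second and the third start is close to that peak's distance from the end of the hg19 span. For WBP1L the first of 2 listed starts is shown.
CLIC5 (chr6:46015861-46016110, minus strand): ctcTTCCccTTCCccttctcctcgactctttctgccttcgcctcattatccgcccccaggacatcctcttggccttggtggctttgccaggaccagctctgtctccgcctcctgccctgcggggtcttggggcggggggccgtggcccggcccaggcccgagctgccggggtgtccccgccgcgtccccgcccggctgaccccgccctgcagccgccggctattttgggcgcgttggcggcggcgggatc
BIRC7 (chr20:63235655-63235904, plus strand): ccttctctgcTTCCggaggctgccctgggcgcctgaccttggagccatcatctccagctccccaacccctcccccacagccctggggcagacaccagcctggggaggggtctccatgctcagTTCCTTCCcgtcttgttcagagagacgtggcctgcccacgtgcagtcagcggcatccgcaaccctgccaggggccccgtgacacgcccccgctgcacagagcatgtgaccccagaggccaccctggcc
ANGPTL2 (chr9:127122636-127122885, minus strand): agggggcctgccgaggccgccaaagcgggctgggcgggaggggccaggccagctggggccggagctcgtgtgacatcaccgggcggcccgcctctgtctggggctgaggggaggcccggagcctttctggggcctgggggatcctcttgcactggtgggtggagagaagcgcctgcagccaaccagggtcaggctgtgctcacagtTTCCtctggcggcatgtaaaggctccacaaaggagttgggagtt
WBP1L (chr10:102743698-102743947, plus strand): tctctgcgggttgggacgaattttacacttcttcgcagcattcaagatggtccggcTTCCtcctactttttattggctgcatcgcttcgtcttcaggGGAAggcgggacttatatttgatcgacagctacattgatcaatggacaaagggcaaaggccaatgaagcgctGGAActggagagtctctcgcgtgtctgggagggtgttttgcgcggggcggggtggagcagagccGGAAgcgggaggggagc

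Counting both strands, the stretches shown held 4 GGAA cores at WBP1L, 3 at BIRC7, 2 at CLIC5 and 1 at ANGPTL2. The same 250 bases before the other listed starts held 1 core at the first CLIC5 start, 2 at the second CLIC5 start and 2 at the second WBP1L start, so the order of the genes depends on the start chosen. The core is common, and 92.7% of the 35116 promoters of the table held at least 1 in the same 250 bases, with a median of 3. The longer form CGGAAG, which contains the core, was present once at the first WBP1L start, beginning 18 bases before it, and not at the second. BIRC7 held it once as its reverse complement CTTCCG, beginning 241 bases before the start. CGGAAG or its reverse complement was found in 16.5% of all promoters of the table. None of the 3 CLIC5 starts nor the ANGPTL2 start had it, and no listed start of the 4 genes had GGAAGT or its reverse complement ACTTCC, which 19.5% of promoters had. These matches describe letters in the windows shown and are not binding sites.

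Most of the 86 peaks were as weak as the list as a whole. Height is given as the pileup, the number of reads that overlap at the summit, recovered from the deposited fold enrichment and p-value. The median pileup was 14 reads in the 4 windows and 14 in the whole list, where the lowest was 12. The median fold enrichment over background was 2.84 in both, and 1 read more or less changed it by 0.189. Of the 86 peaks, 82 had between 12 and 18 reads. The other 4 were a 75-read and a 33-read peak inside WBP1L, a 36-read peak inside CLIC5 and a 24-read peak just beyond the end of ANGPTL2. BIRC7 had none above 16 reads. At least 25 reads were reached by 3 of the 86 peaks and by 2808 of the 315787 peaks of the list (0.889%).

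A q value of at most 0.01 was reached by 16 of the 86 peaks (18.6%, exact Clopper-Pearson 95% interval 11 to 28.4). In the whole list 20.7% of peaks passed the same limit, so the share in the windows was near the background. By gene, 6 of 24 passed at CLIC5 (chromosome 6, 19.9%), 1 of 7 at BIRC7 (chromosome 20, 20.3%), 4 of 34 at ANGPTL2 (chromosome 9, 19.5%) and 5 of 21 at WBP1L (chromosome 10, 19.7%). The 4 windows are not replicates of one another, and intervals over peaks cover counting error only. The background recovered at the summit was the level of 4.29 reads that most of the list shares at 84 of the 86 peaks, and the 2 exceptions were both upstream of ANGPTL2.

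**Figure D1:**
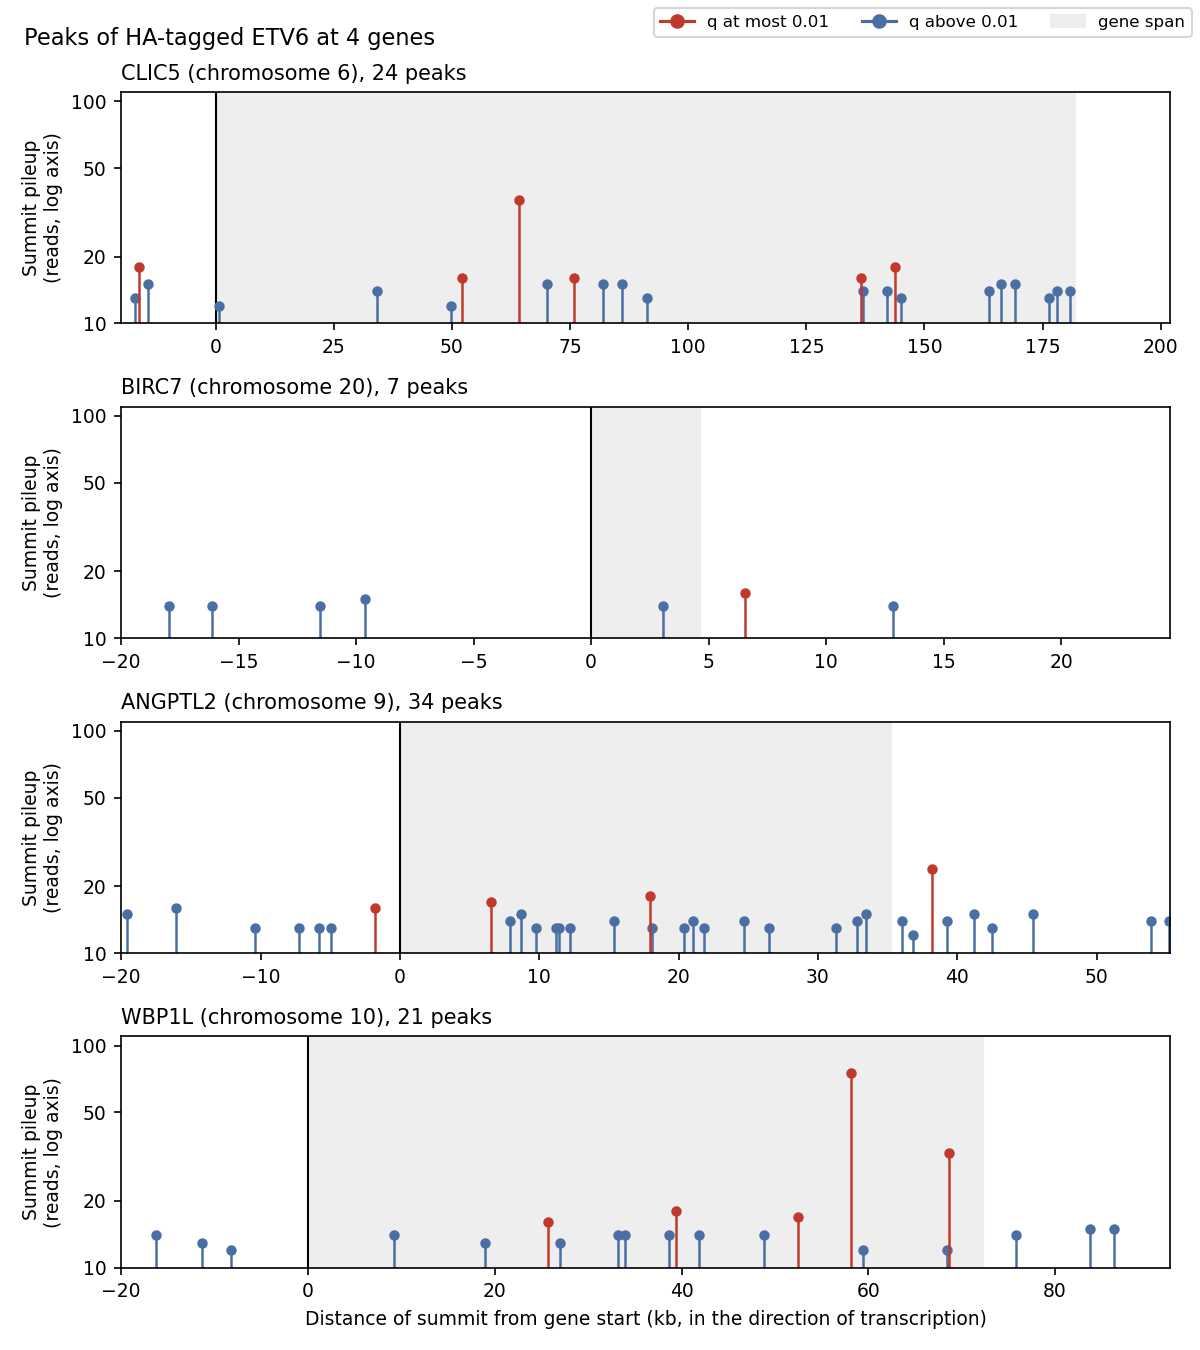
Summit pileup (reads, log axis) of each of the 86 peaks against its distance from the gene start (kb, in the direction of transcription), with the gene span shaded and 20 kb shown on each side. Red stems have q of at most 0.01. The 75-read and 33-read peaks of WBP1L stand 58.2 and 68.7 kb from the start end of the span, the latter 3.6 kb before the gene end. The 36-read peak of CLIC5 stands 64.1 kb from the start end of its span, and BIRC7 has only low peaks.

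WBP1L held the tallest peak of the 4 genes. It lay at chr10:104561815-104562072, was 258 bp wide and had a pileup of 75 reads (exact Poisson 95% interval 59 to 94, counting error only). The fold enrichment was 14.4 and q was 1.12e-60. The summit was 58.2 kb downstream of the gene start and 14.1 kb before the gene end, so it was in the body of the gene and not at the listed 5′ end. On chromosome 10, 18 of 15900 peaks (0.113%) were at least as high, 6 of them at the shared background, this peak included. By fold it ranked 7 on the chromosome and 100 in the whole list.

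The next tallest WBP1L peak stood close by, towards the 3′ end. It lay at chr10:104572330-104572569, 3.6 kb before the gene end, and had 33 reads (22.7 to 46.3), a width of 240 bp and a fold enrichment of 6.43. Its q was 4.04e-15, and 85 peaks of the chromosome (0.535%) were at least as high. The summits of the 75-read and 33-read peaks were 10.5 kb apart. A neighbour at most that far was common among peaks of at least 25 reads on chromosome 10, as 72 of 132 (54.5%) had one. Windows with 2 such peaks were few, however. Of 1205 consecutive tiles of the same length along the chromosome, 15 (1.24%) held 2 or more, and the mean density of the chromosome gives 0.109 such peaks per window.

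The rest of WBP1L was marked by low peaks. The peak at chr10:104543003-104543265 had 18 reads, a fold enrichment of 3.59 and, at 263 bp, the largest width of the window. It lay 39.4 kb into the gene. Of the 21 peaks, 15 were inside the gene, 3 upstream and 3 downstream, and the nearest to the gene end (14 reads, chr10:104579446-104579539) was 3.47 kb beyond it. Around the gene start a stretch of 17.5 kb held no summit. It was the longest such stretch of the window, and 11.8% of the distances between neighbouring summits on chromosome 10 were as long. That share counts each stretch once whatever its length. Positions inside stretches this long make up a larger share of the chromosome, which was not computed. The nearest summit to the start was 8.28 kb upstream, in a 12-read peak at chr10:104495423-104495493 with q of 0.0841, which is above 0.05. Positions within 8.28 kb of a summit made up 73.3% of chromosome 10. No summit was listed within 5 kb of the start end of the span, while 59.6% of the chromosome lay that near to one. RefSeq lists a second start 32.3 kb into the gene in GRCh38.p14. The tall peak, 58.2 kb from the start of the hg19 span, is farther in than that. In that annotation SFXN2 lies before WBP1L and CYP17A1 after it.

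CLIC5 had a single peak well above the low level. It lay at chr6:45983707-45984094 with a pileup of 36 reads (25.2 to 49.8), a fold enrichment of 7 and q of 8.09e-18. At 388 bp it was the widest of the 86 peaks. Its summit was off-centre, at 77.3% of the width. On chromosome 6, 41 of 17396 peaks (0.236%) were at least as high, and by fold it ranked 36. The summit lay 64.1 kb downstream of the upper end of the hg19 span, which is the gene start on the minus strand, and 118 kb before the gene end.

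CLIC5 is transcribed from more than one start, and this bears on where the tall peak sits. RefSeq lists 3 starts in GRCh38.p14, the first 49.5 kb before the second and the second 64.5 kb before the third. The spacing of 64.5 kb is close to the 64.1 kb measured in hg19 from the span's upper end to the summit, which would place the peak near the third start only if the span ends at the second. Coordinates were not converted between builds, and the span's upper end was not matched to a listed start. Whether the peak lies at the third start was therefore not tested. The first start of the table was not placed in hg19 either.

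The other 23 peaks of the CLIC5 window had 12 to 18 reads. The 2 with 18 reads were at chr6:45904368-45904488, 144 kb into the gene, and at chr6:46064105-46064330, 16.1 kb upstream of its start. Each had a fold enrichment of 3.59, and they were 121 and 226 bp wide. Inside the gene lay 21 peaks, 3 were upstream and 0 lay in the 20 kb beyond the gene end. This split is by the hg19 span. If a listed start lies beyond the span's upper end, peaks counted as upstream could lie inside the gene, which was not tested. The peak nearest to the gene start, at chr6:46047482-46047588, was 0.62 kb inside the gene but had the lowest pileup of the list, 12 reads, and q of 0.0841. Positions within 0.62 kb of a summit made up 11.6% of chromosome 6. At q of at most 0.05 the nearest summit was 14.4 kb upstream, and 82% of chromosome 6 lay as near to a summit that passed this limit. Near the gene end, a 14-read peak at chr6:45867360-45867463 was 1.23 kb inside the gene. The longest stretch of the window without a summit, 45.2 kb, lay in the body of CLIC5. On chromosome 6, 2.63% of neighbouring summits were as far apart. That share is for single stretches and not for the longest of a window, for which no share was computed.

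ANGPTL2 had many peaks and only low ones within the gene. Of the 34 peaks, 18 were inside the gene, 7 upstream and 9 downstream. Pileups inside the gene ran from 13 to 18 reads. The highest peak of the window, with 24 reads (15.4 to 35.7), lay 2.95 kb beyond the gene end at chr9:129846545-129846765. It had a width of 221 bp, a fold enrichment of 4.73 and q of 7.77e-08, and 106 of the 13264 peaks of chromosome 9 (0.799%) were at least as high. In GRCh38.p14 ANGPTL2 lies within the larger gene RALGPS1, so peaks inside ANGPTL2 also lie inside RALGPS1 in that annotation.

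Among the low ANGPTL2 peaks, that at chr9:129866887-129867011 had 18 reads and lay 18 kb into the gene. The peak at chr9:129878310-129878462 had 17 reads and lay 6.51 kb into it. The widest, at chr9:129876824-129877046, spanned 223 bp at 14 reads. The summit nearest to the gene start was 1.81 kb upstream, at chr9:129886579-129886719, with 16 reads and q of 0.0048. Of the 4 genes this was the only one whose nearest summit to the start had q of at most 0.01. Over the whole of chromosome 9, 6.05% of positions lay as near to a summit that passed this limit. The 1 Mb on each side of the window held 2.87 times the chromosome's density of peaks of any q. The share of positions as near within that region was not computed. Nearest to the gene end was a 14-read peak 0.786 kb beyond it, at chr9:129848790-129848845. The 2 peaks with a raised background had 13 and 16 reads and fold enrichments of 2.46 and 2.24.

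BIRC7 is the smallest of the genes, with a span of 4.625 kb, and its 7 peaks were all low. A single peak lay inside the gene, at chr20:61870262-61870366, with 14 reads, 105 bp and a fold enrichment of 2.84. Its summit was 3.04 kb after the start and 1.58 kb before the end. Positions within 3.04 kb of a summit made up 57.2% of chromosome 20, so a peak at that distance was an ordinary one for the chromosome. The highest peak, at chr20:61873720-61873814, was 1.93 kb beyond the gene end, with 16 reads (9.15 to 26), 95 bp, a fold enrichment of 3.22 and q of 0.0048. In GRCh38.p14 the gene after BIRC7 is NKAIN4 and the gene before it is YTHDF1.

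The other 5 BIRC7 peaks lay farther out. The peak at chr20:61880024-61880158 was 8.22 kb beyond the gene end, with 14 reads and 135 bp. Upstream of the start, that at chr20:61857611-61857751 was 9.61 kb away, with 15 reads and 141 bp. The remaining 3 upstream peaks had 14 reads each. They were 11.5 kb away at chr20:61855668-61855781 (114 bp), 16.2 kb away at chr20:61851032-61851107 (76 bp) and 17.9 kb away at chr20:61849144-61849343 (200 bp). A stretch of 12.7 kb around the start had no summit, and 11.9% of neighbouring summits on chromosome 20 were as far apart. It was the longest such stretch of the window. Here too the share counts each stretch once, and positions inside stretches this long make up a larger share, which was not computed. No summit was listed within 1 kb of the start.

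Distances to a gene start are all from the start end of the hg19 span. The further starts that RefSeq lists for CLIC5 and WBP1L were not placed in hg19, so peaks close to those starts are not counted. Across the 4 genes, 1 summit in all lay within 1 kb of the start end of a span, the 12-read peak of CLIC5. Positions within 1 kb of a summit made up 17.7% of chromosome 6, 26.6% of chromosome 20, 16% of chromosome 9 and 19.9% of chromosome 10. Within 5 kb of that end, CLIC5 had 1 summit, BIRC7 had 1, ANGPTL2 had 2 and WBP1L had 0. Positions within 5 kb of a summit made up 56.1% of chromosome 6, 72% of chromosome 20, 47.5% of chromosome 9 and 59.6% of chromosome 10. Peaks of at least 25 reads, which are 0.889% of the list, were farther from the start end of the span. The nearest was 64.1 kb away at CLIC5, where another listed start may be closer, 91.1 kb at BIRC7, 44.4 kb at ANGPTL2 and 58.2 kb at WBP1L. Few positions were as near to such a peak, 5.88% of chromosome 6, 9.83% of chromosome 20, 3.12% of chromosome 9 and 5.32% of chromosome 10. These shares describe each chromosome and are not p-values. At BIRC7 the nearest was a 44-read peak of 500 bp at chr20:61958162-61958661, outside the window and 86.5 kb beyond the gene end. At ANGPTL2 a 27-read peak (chr9:129929211-129929420) and a 40-read peak (chr9:129944454-129944652) lay 44.4 and 59.7 kb upstream.

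Peak density separated ANGPTL2 from the other genes when each window was set against its own chromosome. The ANGPTL2 window had 451.7 peaks per Mb (exact Poisson 95% interval 312.8 to 631.3), against 94.05 per Mb over the span of chromosome 9, a ratio of 4.8 (3.33 to 6.71). At the chromosome's mean density the window would have held 7.08 peaks in place of 34. That mean includes stretches without peaks, as 23 of 140 full 1 Mb bins on chromosome 9 were empty. On chromosomes 6, 20 and 10 the empty bins were 3 of 169, 2 of 61 and 2 of 134. With empty bins left out, the ANGPTL2 ratio was 4.05. WBP1L had 187.0 per Mb against 117.4 on chromosome 10, a ratio of 1.59 (0.986 to 2.43). CLIC5 had 108.1 per Mb against 101.9 on chromosome 6, a ratio of 1.06 (0.68 to 1.58). BIRC7 had 156.9 per Mb against 158.7 on chromosome 20, a ratio of 0.988 (0.397 to 2.04). For the last 3 genes the interval included 1. The ratios were not tested against one another.

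The spread along each chromosome was wider than counting error, so each window was also set beside consecutive tiles of its own length. On chromosome 9 the median of 1873 tiles was 6 peaks and the 95th percentile 21, and 4 tiles (0.214%) held 34 or more. Of these tiles, 451 held no peak, and they are counted in the share. For WBP1L 18.4% of 1205 tiles held 21 or more, for CLIC5 38.9% of 769 tiles held 24 or more, and for BIRC7 50.5% of 1408 tiles held 7 or more. These shares describe each chromosome and are not p-values. The ANGPTL2 peaks were numerous but not tall, since 29 of 34 (85.3%) had at most 15 reads, against 80.2% on chromosome 9. Counting only peaks with q of at most 0.01 left 4 peaks and a ratio of 2.9.

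**Figure D2:**
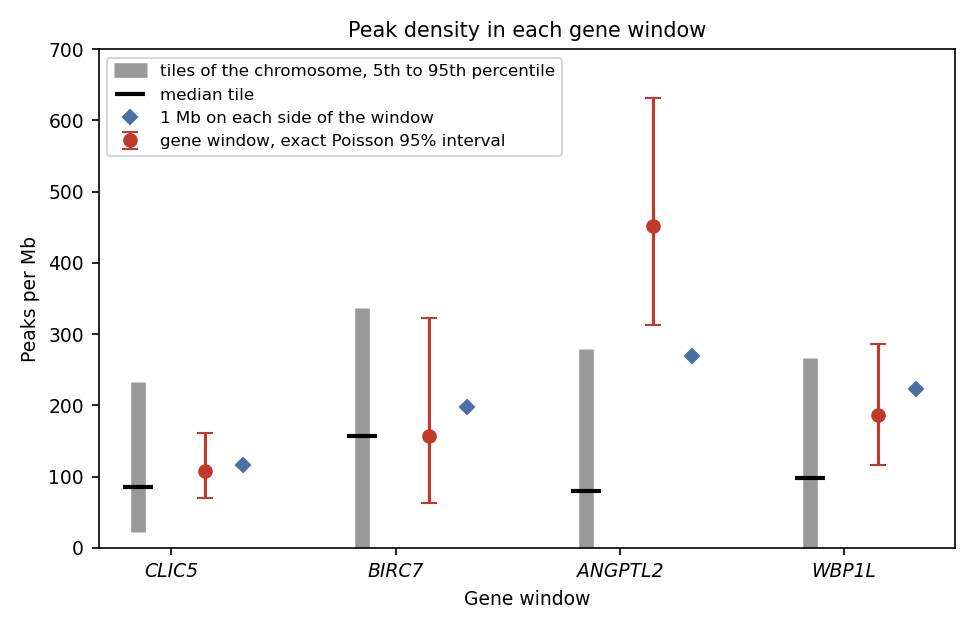
Peaks per Mb in each gene window (red points, with exact Poisson 95% intervals), in consecutive tiles of the same length on the same chromosome (grey bars from the 5th to the 95th percentile, black line at the median) and in the 1 Mb on each side of the window (blue diamonds). ANGPTL2, at 451.7 per Mb, lies above the 95th percentile of its tiles, and the other 3 lie inside their tile range.

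The high density at ANGPTL2 extended far beyond the gene. The 1 Mb on each side of the window held 270 peaks per Mb, which is 2.87 times the density of chromosome 9. Against this local level the ANGPTL2 ratio was 1.67. In 1 Mb bins centred on the gene, the 18 bins from 7 Mb before it to 10 Mb after it held 139 to 279 peaks each. The 3 bins before those held 39 to 69. Set against the 15 Mb around the gene, a reference chosen after these bins were seen, the ratio was 1.99 (1.38 to 2.78). None of the 199 tiles in those 15 Mb held 34 peaks or more, and the tile edges do not match the window's. What sets the level of this part of chromosome 9 was not tested. Since the untagged pool has no list here, its level in this region was not analysed here.

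Neighbourhoods mattered for the other genes too. The 1 Mb on each side of WBP1L held 223 peaks per Mb, 1.9 times the density of chromosome 10, and against it the ratio was 0.839. For CLIC5 the same regions held 116 per Mb and the ratio was 0.932. For BIRC7 they held 198 per Mb and the ratio was 0.792. None of these 3 windows was denser than the 2 Mb next to it. BIRC7 lay near the end of the listed peaks of chromosome 20, so no full 1 Mb bin could be drawn after it.

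**Figure D3:**
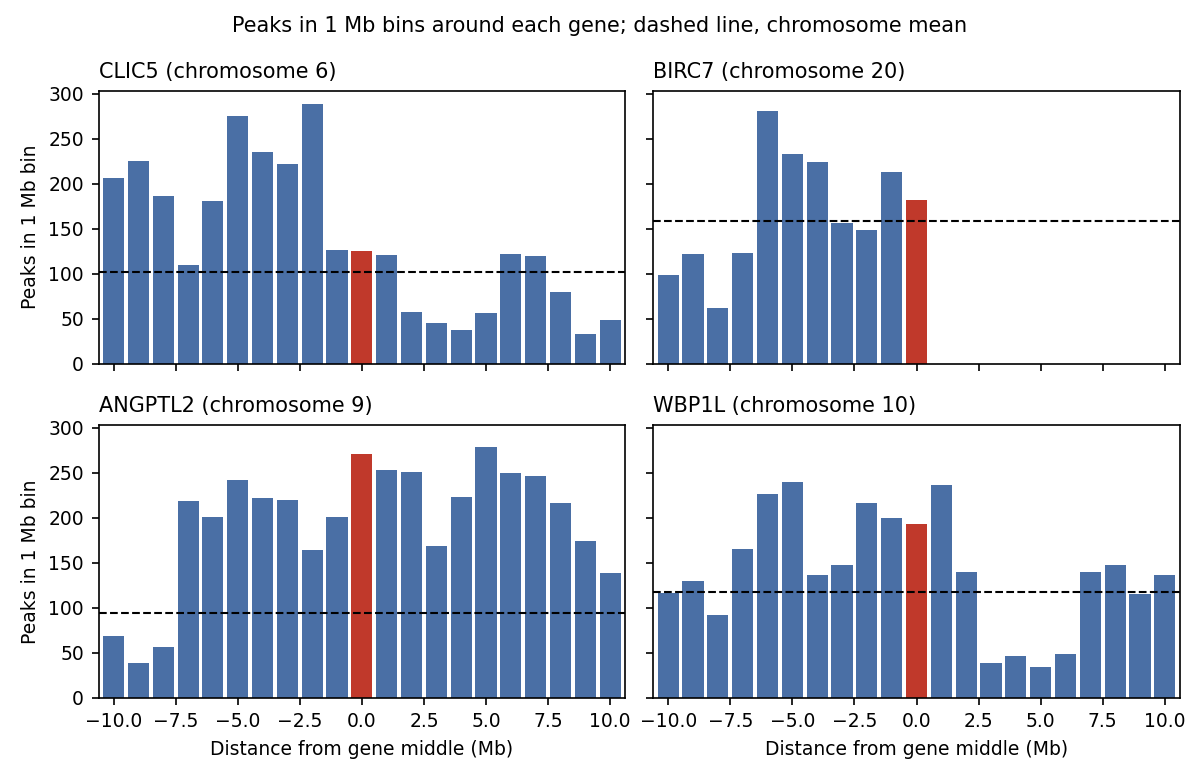
Number of peaks in 1 Mb bins by distance from the middle of each gene (Mb), with the bin that holds the gene in red and the mean density of the chromosome as a dashed line. Bins that run past the listed peaks of a chromosome are left out, which removes all bins after BIRC7. ANGPTL2 sits in a run of 18 bins that each hold 139 to 279 peaks.

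Widths followed heights in the windows as on the autosomes at the shared background. For the 27 peaks with 12 or 13 reads the median width was 71 bp, against 74 bp on the autosomes. The 42 peaks with 14 or 15 reads had 112 bp against 102 bp, and the 13 with 16 to 18 reads had 141 bp against 141 bp. The tallest peaks of CLIC5 and WBP1L lay outside the quartiles of their class, in opposite directions. The 36-read CLIC5 peak, at 388 bp, was wider than the median of 261 bp (quartiles 219 and 332) of 233 autosomal peaks with 33 to 39 reads, of which 14.2% were as wide. The 75-read WBP1L peak, at 258 bp, was narrower than the median of 379 bp (quartiles 319.5 and 492.5) of 67 peaks with 68 to 82 reads, of which 8.96% were as narrow. The 33-read WBP1L peak and the 24-read ANGPTL2 peak lay within the quartiles of their classes. The peaks with 18 reads lay outside the quartiles (133 and 191 bp) of 26390 autosomal peaks with 17 to 19 reads. Those of 226 bp at CLIC5 and 263 bp at WBP1L were above, and those of 121 bp at CLIC5 and 125 bp at ANGPTL2 below. Such departures were therefore not particular to the tallest peaks.

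**Figure D4:**
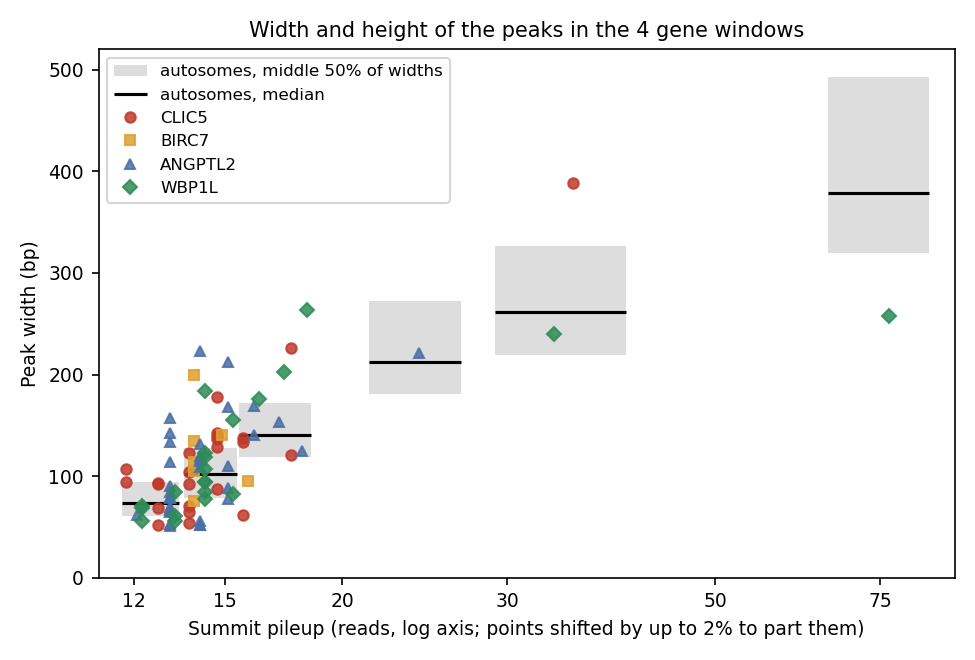
Width (bp) of the 86 peaks against summit pileup (reads, log axis), coloured by gene, over the median (black) and the middle 50% (grey) of autosomal peaks of like pileup at the shared background. The CLIC5 peak of 36 reads lies above its grey box and the WBP1L peak of 75 reads below its own.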

How the data were processed

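The tagged pool has 1 deposited peak list in the narrowPeak layout, in hg19 coordinates. Per the submitters' processing notes, Bowtie2 2.2.3 and MACS2 2.1.1.20160309 were used. Which step used which tool, with which settings and control, is not given in the sources used here. The design text speaks of triplicates, while the titles name pools. The authors' deposited fold column was read as the ratio of summit pileup to background, and the deposited −log10 columns as −log10 p and −log10 q. The largest q was 0.0981. The deposited score column was not used. Fold and q are the authors' values.

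Pileup and background were recovered from 2 equations, the upper Poisson tail for p and fold = (pileup + 1)/(background + 1). Of 315787 pileups, all but 1 were whole numbers to within 0.05, and 100% of 2000 simulated pileups were recovered. Library read totals were not used here, so depth is given as pileup. PCR duplicates are not told apart, and intervals cover counting error only.

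Spans came from the rule that defines the windows, and strand from the RefSeq table by symbol (4 of 4 matched). Its build differs from hg19, so its coordinates were not set on the peaks, and exon or intron was not assigned. Chromosome density used the span from first to last peak. Named peaks are all of them in a window of at most 15, and otherwise the summits nearest each gene end, the 3 highest and the widest. Those beyond the windows, and the 2 with a raised background, were named after their values were seen. The limit of 25 reads was also set after pileups were known. The members and lists were chosen with earlier results of these data known. Alternatives were window width, q limit, merging, overlap and reference. Scripts used Python 3.11.15 with scipy 1.17.1, pandas 2.3.3 and numpy 2.4.6, and figures matplotlib 3.10.9.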

Additional observations from a re-analysis of the deposited data

How the results depend on the processing

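In 81 of 90 alternatives the value stayed inside its interval or, for a distance, within 1 peak width. In 9 it moved. Some of the 81 could hardly have moved. The nearest edge of a peak lies within 1 peak width of its summit, and counting any overlap with the window kept the same number of peaks. The count of 81 is therefore not a measure of how stable the results are. The density ratio crossed 1 in 6 of 11 alternatives at BIRC7 (from 0.988 to between 1.02 and 1.36), 2 of 11 at CLIC5 (from 1.06 to 0.932 and 0.765) and 1 of 11 at WBP1L, whose intervals included 1, and in 0 of 11 at ANGPTL2. Medians of pileup and width, highest pileups and the share with q of at most 0.01 stayed within their intervals in all that were run. The windows compared are nested and share peaks, so this says little about stability. The ANGPTL2 density ratio of 4.8 fell to 1.67 against the 1 Mb on each side. Against the 15 Mb around the gene, the reference chosen after seeing the data, it was 1.99. At q of at most 0.01 it was 2.9, from 4 peaks and with no interval computed. The WBP1L ratio of 1.59 went to 0.839 against the 1 Mb on each side. The nearest summit to the start moved from 620 bp to 14353 bp (q of at most 0.05) and 16124 bp (0.01) at CLIC5, from 8276 bp to 9242 and 25697 bp at WBP1L, and from 3043 bp to 6555 bp (0.01) at BIRC7, since fewer peaks were kept. At 12 to 15 reads a peak is within 3 reads of the lowest height listed. No paired analysis was possible because the list is 1 pooled library, and no replicate could be left out.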
